A study of Homo sapiens with 4 samples.

Results

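The 7 complex I subunits encoded by mitochondrial DNA, MT-ND1 to MT-ND6 with MT-ND4L, were followed by ribosome profiling in A375 cells, an established human melanoma line. They are 7 of the 78724 gene rows of the deposited table and were taken by place, as the rows of the mitochondrial chromosome (chrM) whose start and end equal those of the RefSeq ND genes. With the 6 other mitochondrial protein rows (MT-CYB, MT-CO1, MT-CO2, MT-CO3, MT-ATP6 and MT-ATP8) they make up the 13 protein rows of that chromosome. Cells spent 48 h in control medium (2 libraries) or in medium lacking arginine (2 libraries), and RNA fragments protected by ribosomes were sequenced without prior removal of ribosomal RNA. The arginine-free medium was an amino-acid-free RPMI base given back glucose, pyruvate and the amino acids other than L-arginine. The cells had been maintained in DMEM with serum, and what the control medium contained is not given in the sources used here, so an effect of the base medium cannot be told apart from that of arginine. The labels do not say whether the 2 libraries of a group came from different cultures, and p-values then reflect library-to-library spread that could be purely technical.

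Complex I (NADH dehydrogenase) is the entry enzyme of the respiratory chain: it passes electrons from NADH to ubiquinone and pumps protons across the inner mitochondrial membrane. Its mitochondrially encoded subunits form the core of the membrane arm, and the other subunits are made in the cytosol from nuclear genes and imported. The mitochondrial mRNAs are read by the organelle's own ribosomes, and all of them except that of MT-ND6 are transcribed from the same template strand, as long precursors cut mostly at the tRNAs that lie between the genes.

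The fitted change of all 7 complex I rows lay below 0 in arginine-free medium, but MT-ND1 lay just above 0 with RLE factors, and 5 rows lay above 0 when libraries were scaled to the 13 mitochondrial protein rows. Of the 7 rows 1, MT-ND2, fell and the other 6 did not pass the test (edgeR, adjusted p under 0.05), while 16.9% of the 2526 rows tested over the whole table were called lower, so the share of members called is close to the background. The fitted log2 fold changes (arginine-free over control) ran from -0.88 to -0.02, with a median of -0.55 over the 7 rows and -0.03 over all tested rows. The 6 other mitochondrial protein rows had a median of -0.79, and 2 of them fell. At an unadjusted p under 0.05 there were 2 of the 7, MT-ND2 and MT-ND5. Over all tested rows 33% passed the adjusted threshold in either direction, so at least that share passes the unadjusted one. All 7 rows passed the filter on low counts. Fewer mRNA molecules and fewer ribosomes per mRNA cannot be told apart here, since ribosome profiling libraries alone were analysed. Whether the reads on these rows all came from ribosomes was not tested.

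Total counts were 105004 and 217989 in control replicates 1 and 2, and 234766 and 192006 in arginine-free replicates 1 and 2. The 7 complex I rows held 653, 1126, 1121 and 476 of these reads in that order, which is 0.622%, 0.517%, 0.477% and 0.248% of each library. The 95% Wilson interval of the last share runs from 0.227% to 0.271% and that of arginine-free replicate 1 from 0.450% to 0.506%, so these intervals do not overlap. They treat each read as independent. Amplified fragments without molecular identifiers are not independent molecules, so the intervals may be too narrow. The mean share was 0.569% ± 0.0745 for control and 0.363% ± 0.162 for arginine-free libraries (SD, n = 2 each, exact two-sided permutation p = 0.333, the smallest that 2 libraries against 2 allow).

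Arginine-free replicate 2 also stood apart at other mitochondrial rows. The 2 mitochondrial ribosomal RNA rows together took 14.6% of its reads, against 6.29% in arginine-free replicate 1 and 5.14% and 3.65% in the controls. Both rRNA rows rose in the fit, with log2 fold changes of 1.09 (SE 0.37) for MT-RNR1 and 1.79 (SE 0.46) for MT-RNR2, while no mitochondrial protein row did. The row of the valine tRNA MT-TV was highest in control replicate 2, at 20.2% of reads against 8.68% to 10.3% in the other libraries. With libraries scaled only over rows off the mitochondrial chromosome, the median log2 fold change of the complex I rows was also -0.55.

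**Figure D1:**
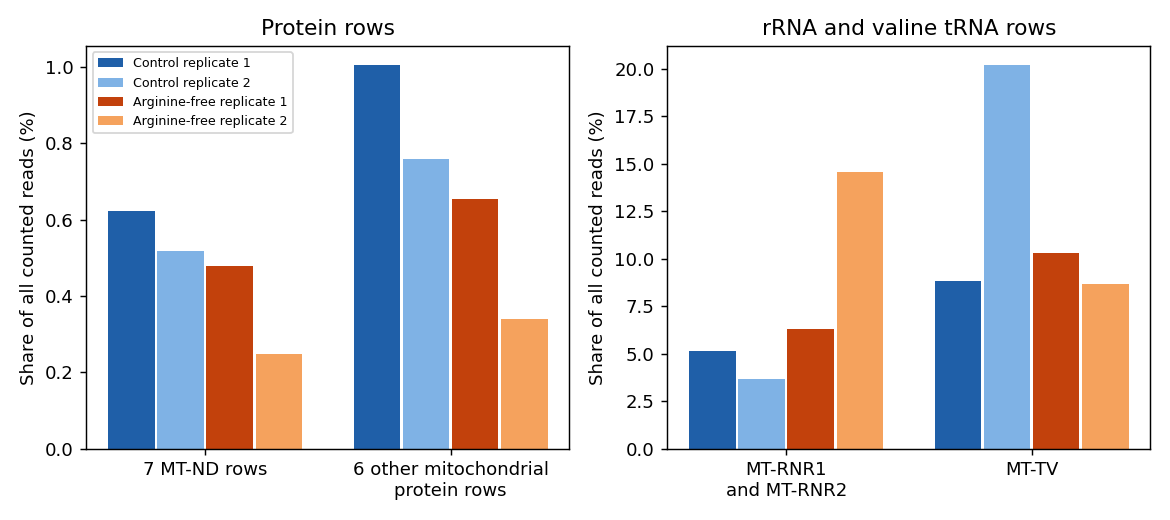
Share of all counted reads (%, bars from 0) in each of the 4 libraries, for the 7 complex I rows and the 6 other mitochondrial protein rows (left) and for the 2 mitochondrial rRNA rows and the valine tRNA row (right). Arginine-free replicate 2 has the lowest bars at the protein rows (0.248% for complex I) and the highest at the rRNA rows (14.6%), and control replicate 2 has the highest at MT-TV.

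MT-ND2, MT-ND4 and MT-ND5 are the antiporter-like subunits, which hold proton channels of the membrane arm. MT-ND2 (chrM:4470-5511, plus strand) had 83 and 193 reads in control replicates 1 and 2, and 150 and 48 in arginine-free replicates 1 and 2. Scaled to the library (normalised CPM, a count over the library's reads in tested rows after TMM), these are 782, 989.8, 649.6 and 301. Both control libraries lay above both arginine-free ones, and arginine-free replicate 2 was the lowest by a wide margin. The mean went from 886 ± 147 to 476 ± 246 CPM (SD, n = 2 each). By the fit MT-ND2 fell 1.84-fold, a log2 value of -0.88 ± 0.29 (SE), with an edgeR adjusted p of 0.0319. The call ended when control replicate 2 was left out (-0.67, edgeR adjusted p = 0.186), when arginine-free replicate 2 was (-0.41, adjusted p = 0.199) and with DESeq2 (-0.86, adjusted p = 0.137), and the adjusted p ran from 4.95e-05 to 0.741 over its 12 alternatives.

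MT-ND5 (chrM:12337-14148, plus strand), at the far end of the membrane arm, carried the most reads of the 7 rows: 364 and 530 in control, 537 and 262 in arginine-free medium. Its CPM were 3430.5 and 2718 against 2326 and 1646, again with no overlap of the groups. The log2 fold change was -0.62 (SE 0.24) and missed the threshold (edgeR adjusted p = 0.0633), with an SE smaller than that of any other member. It passed where a row needed 50 or more reads in both libraries of either group to be tested (-0.85, adjusted p = 0.0342) and when arginine-free replicate 1 was left out (-0.85, adjusted p = 0.00432). MT-ND4 (chrM:10760-12137, plus strand), between MT-ND2 and MT-ND5 in the arm, had 90 and 201 reads in control and 198 and 78 in arginine-free medium. In CPM it stood at 848 and 1031 against 858 and 489.9, so arginine-free replicate 1 lay between the controls. Its log2 fold change was -0.47 (SE 0.26, edgeR adjusted p = 0.175), and it passed without arginine-free replicate 1 (-0.91, adjusted p = 0.00536).

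The other 4 subunits form the part of the membrane arm that meets the peripheral arm. MT-ND1 (chrM:3307-4262, plus strand) lines the ubiquinone channel, and its row had 33 and 60 reads in control and 90 and 33 in arginine-free medium. In CPM these are 311 and 308 against 389.8 and 207. The 2 control libraries were nearly equal, while the arginine-free ones lay on either side of them, 1.88-fold apart. The log2 fold change was -0.02 (SE 0.31, edgeR adjusted p = 0.965), the closest to 0 of the 7, and leaving out arginine-free replicate 2 gave 0.39, leaving out arginine-free replicate 1 gave -0.53, and neither passed.

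MT-ND3 (chrM:10059-10404, plus strand), whose loop near the quinone site shifts between the active and resting states of the enzyme, had the fewest reads: 17 and 31 in control, 38 and 8 in arginine-free medium. Its CPM were 160.2 and 159 against 165 and 50.2, so that 1 arginine-free library matched the controls and the other was 3.28-fold lower than its partner. The log2 fold change was -0.48 (SE 0.43, edgeR adjusted p = 0.419). It passed without arginine-free replicate 1, at -1.60 (adjusted p = 0.0139), and stood at 0.10 without arginine-free replicate 2.

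MT-ND4L (chrM:10470-10766, plus strand) is a small subunit made from the same mRNA as MT-ND4, and the 2 rows overlap by 7 bases. It had 27 and 45 reads in control and 45 and 15 in arginine-free medium, or 254 and 231 against 195 and 94.2 CPM, with both controls above both arginine-free libraries. The log2 fold change was -0.69 (SE 0.35, edgeR adjusted p = 0.149). With arginine-free replicate 1 left out it passed at -1.30 (adjusted p = 0.0145). MT-ND6 (chrM:14149-14673, minus strand) is the member encoded on the opposite strand. It had 39 and 66 reads in control and 63 and 32 in arginine-free medium, or 368 and 338 against 273 and 201 CPM, again without overlap. Its log2 fold change was -0.55 (SE 0.28, edgeR adjusted p = 0.143), and it did not pass in any of its 11 alternatives. Reads were counted without regard to strand, so footprints on MT-ND6 and RNA from the other strand at the same place cannot be told apart.

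**Figure D2:**
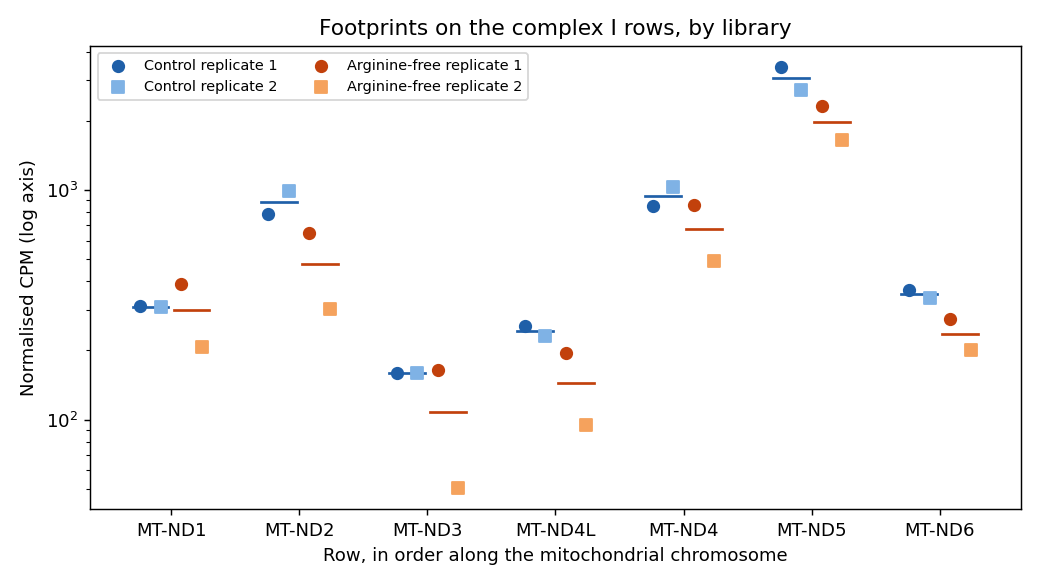
Normalised CPM of each complex I row (log axis), in order along the mitochondrial chromosome, with 1 point per library and a short line at the mean of each group. Arginine-free replicate 2 is the lowest point at each of the 7 rows, and the groups overlap at MT-ND1, MT-ND3 and MT-ND4.

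Over the 7 rows, 4 had both control libraries above both arginine-free ones and none the reverse, where 34.2% and 33.1% of all tested rows did so. In every one of the 7, arginine-free replicate 1 lay above arginine-free replicate 2, as it did in the 6 other mitochondrial protein rows but in 48.8% of all tested rows. The median size of the log2 difference between these 2 libraries was 0.91 over the complex I rows, larger than the median log2 fold change between media (-0.55). Between the 2 control libraries it was 0.14, with members going either way. Without arginine-free replicate 2 the median log2 fold change of the 7 rows was -0.24, and without arginine-free replicate 1 it was -0.91. It was -0.50 without control replicate 1 and -0.60 without control replicate 2. Leaving out a library leaves 1 in its group, which the fit then takes to vary like the other group.

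**Figure D3:**
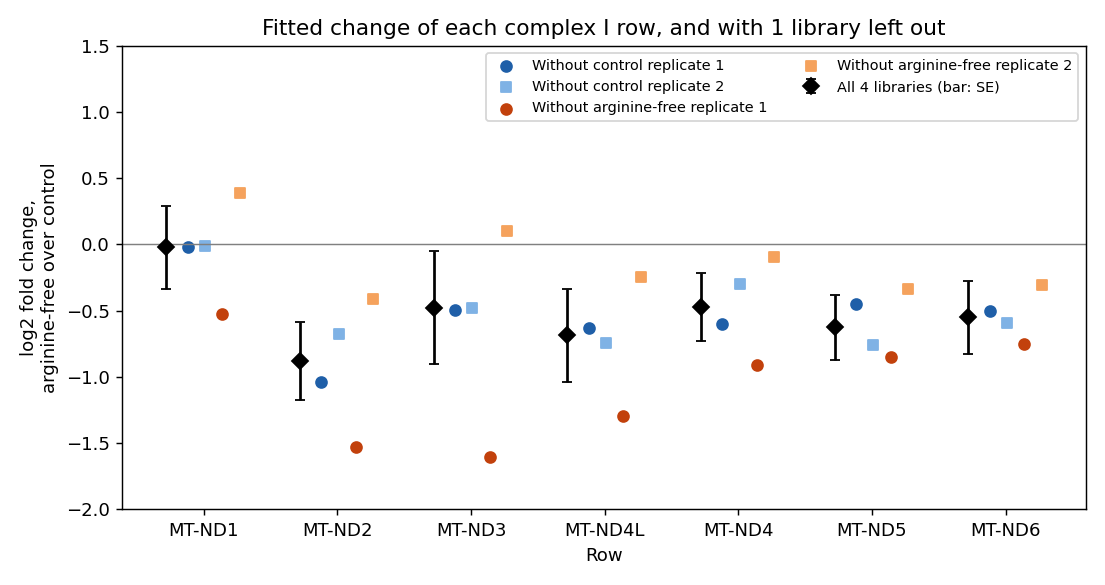
Fitted log2 fold change (arginine-free over control) of each complex I row with all 4 libraries (diamond, bar = SE) and with 1 library left out (colour and shape show which). The values without arginine-free replicate 1 are the lowest at each row, down to -1.60 at MT-ND3, and those without arginine-free replicate 2 are the highest, up to 0.39 at MT-ND1.

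Next, each row was expressed as a share of the reads on the 13 mitochondrial protein rows, which asks whether the complex I rows moved apart from the rest of the mitochondrial proteins. These 13 rows held 1708 and 2779 reads in control and 2655 and 1130 in arginine-free medium. The complex I rows took 38.2% and 40.5% of them in control and 42.2% and 42.1% in arginine-free medium. The arginine-free shares lay above the controls and close together, at 42.2% ± 0.0695 against 39.4% ± 1.62 (SD, n = 2 each), a difference of 2.80 percentage points (exact two-sided permutation p = 0.333, the smallest possible). The 95% Wilson interval was 38.7% to 42.4% in control replicate 2 and 40.4% to 44.1% in arginine-free replicate 1, so these libraries' intervals overlap. MT-CO1, of complex IV, took 31.4% and 29.0% in control and 24.9% and 21.1% in arginine-free medium, and with MT-CO1 left out of the denominator the complex I share went the other way, from 56.4% to 54.8%. With each count divided by its row's length the share was 36.1% and 38.8% in control and 39.97% and 36.9% in arginine-free medium, so the groups overlapped and the difference was 0.99 points. It was 1.65 points without control replicate 1.

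Among single members, MT-ND1 had a share of 1.93% and 2.16% in control and 3.39% and 2.92% in arginine-free medium. It was the 1 member whose groups did not overlap (exact two-sided permutation p = 0.333, adjusted over the 7 members 0.933). The groups were also apart at MT-CO1, MT-CO2, MT-CO3, MT-ATP6 and MT-ATP8, so this was not particular to MT-ND1. With 2 libraries against 2, 33.3% of label arrangements leave the groups apart. MT-ND2 took 4.86% and 6.94% against 5.65% and 4.25%, and MT-ND4 took 5.27% and 7.23% against 7.46% and 6.90%. MT-ND5 held the largest share of the 7 in each library, with 21.3% and 19.1% in control and 20.2% and 23.2% in arginine-free medium. The shares of MT-ND3, MT-ND4L and MT-ND6 ranged over the 4 libraries from 0.708% to 1.43%, from 1.33% to 1.69% and from 2.28% to 2.83%, with the groups overlapping in each. With 2 libraries a group none of these differences can pass 0.05.

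**Figure D4:**
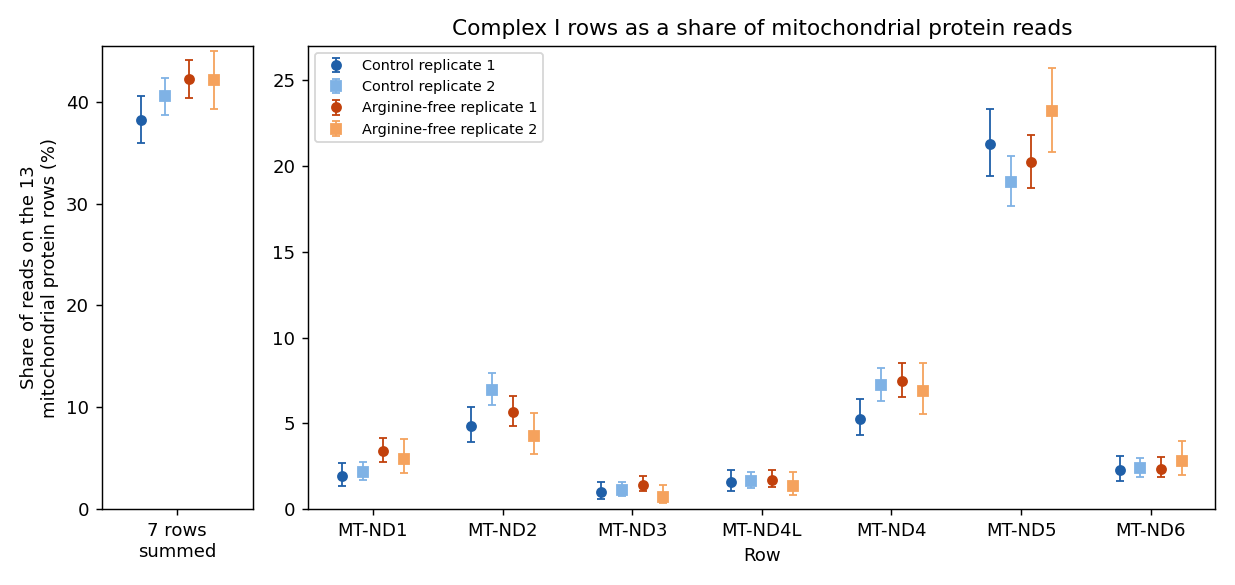
Share (%) of the reads on the 13 mitochondrial protein rows taken by the 7 complex I rows summed (left) and by each row (right), with 1 point per library and 95% Wilson intervals for counting error. The summed share lies between 38.2% and 42.2% in all 4 libraries, and the groups are apart for the sum and for MT-ND1.

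Ratios between neighbouring members were chosen after their values were seen. The ratio of MT-ND5 to MT-ND6 reads, neighbours on opposite strands, was 9.33 and 8.03 in control and 8.52 and 8.19 in arginine-free medium, a spread of 1.16-fold over the 4 libraries. MT-ND4 to MT-ND4L, of 1 mRNA, was 3.33 and 4.47 against 4.40 and 5.20. MT-ND5 to MT-ND4 was 4.04 and 2.64 in control and 2.71 and 3.36 in arginine-free medium, a spread of 1.53-fold. MT-ND2 to MT-ND1, neighbours on the same strand, was 2.52 and 3.22 in control and 1.67 and 1.45 in arginine-free medium (exact two-sided permutation p = 0.333). Here the groups did not overlap, and the spread over the 4 libraries was 2.21-fold.

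Levels were compared between rows per length, as reads per kb of row per 1000 reads on the 13 rows. MT-ND5 had the highest density of the 7, at 118 and 105 in control and 112 and 128 in arginine-free medium, above the other members in all 4 libraries. MT-ND4L (mean over the 4 libraries 52.4), MT-ND2 (52.1), MT-ND4 (48.7) and MT-ND6 (46.97) followed with overlapping ranges, so their order is not resolved. MT-ND3 (30.7) and MT-ND1 (27.2) were lowest, with ranges from 20.5 to 41.4 and from 20.2 to 35.5 that overlap each other. Both ranges lie below that of MT-ND6. The range of MT-ND3 overlaps those of MT-ND4 (lowest 38.2) and MT-ND2 (lowest 40.8), though within each library MT-ND3 was below both. Of the 13 rows, MT-CO2 (192), MT-CO1 (172) and MT-CO3 (120) had higher means than MT-ND5 (116), and MT-ATP8 (19.9) was the 1 row below MT-ND1. Reads that fall on 2 rows at once are not assigned by the counting tool unless it is told to, so footprints across the shared bases of MT-ND4L and MT-ND4 or across a border with a tRNA row may be missing. Reads that match nuclear copies of mitochondrial DNA as well may also be missing, as the input files were named as quality-filtered, and the part of these losses in the densities was not tested.

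**Figure D5:**
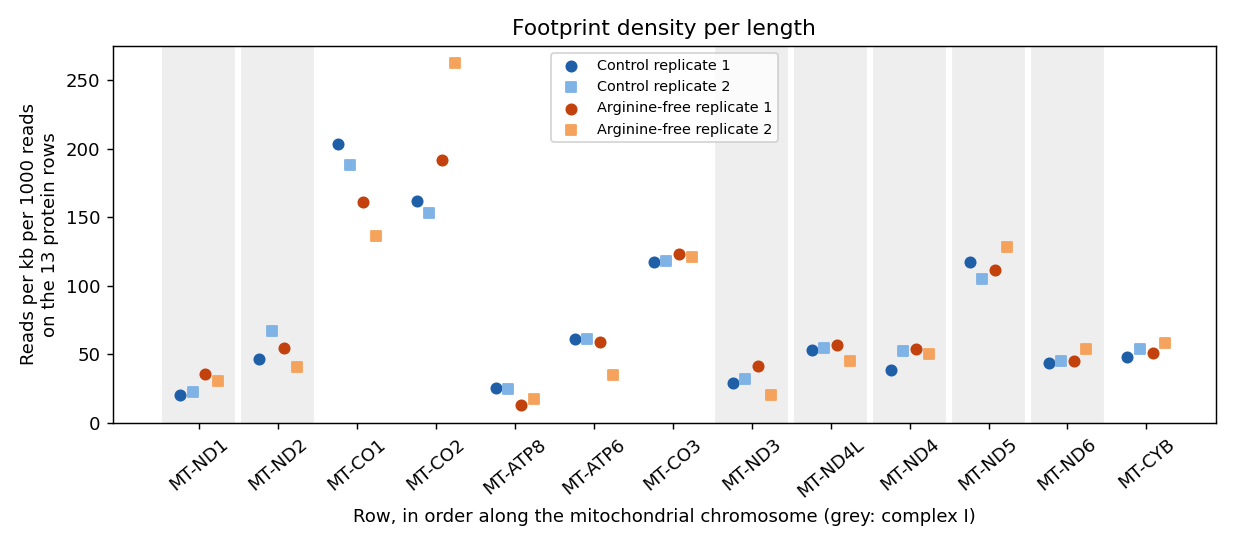
Reads per kb of row length per 1000 reads on the 13 mitochondrial protein rows, with 1 point per library and rows in order along the chromosome (grey, complex I). MT-ND5 stands above the other complex I rows in all 4 libraries, between 105 and 128, while MT-ND1 and MT-ND3 lie between 20.2 and 41.4.

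For likeness, the root mean square difference of log2 CPM, each row centred on its own mean, was taken over the 4 libraries. The row nearest to MT-ND6 was MT-CYB (0.0558) and then MT-ND5 (0.0897). MT-ND5 was nearest to MT-ND6 and then to MT-CO3 (0.101), MT-ND4L to MT-CO3 (0.100) and then MT-CYB (0.187), and MT-ND4 to MT-CYB (0.154) and then MT-CO3 (0.179). MT-ND2 and MT-ND3 shared both nearest rows, MT-ND4L (0.195 and 0.201) and MT-ATP6 (0.226 and 0.218). MT-ND1 had the most distant neighbours, MT-ND4 (0.229) and MT-CO2 (0.247). These are descriptions over 4 libraries, which share their depth and scaling.

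The tRNA rows next to the complex I rows, which are not translated, gave other values. Of 9 such rows 7 were tested, and 4 fell, where 16.9% of all tested rows were called lower. The other 3 did not pass. MT-TM, the methionine tRNA just before MT-ND2, went the other way (log2 fold change 0.89, SE 0.37). MT-TW after MT-ND2 stood at -0.45 (SE 0.48) and MT-TL2 before MT-ND5 at -0.16 (SE 0.42). MT-TL1, the leucine tRNA just before MT-ND1, had 60 and 108 reads in control and 15 and 24 in arginine-free medium (log2 fold change -2.43, SE 0.34, edgeR adjusted p = 0.000109). MT-TH, the histidine tRNA that follows MT-ND4, had 136 and 278 against 49 and 66 (log2 fold change -2.14, SE 0.28). MT-TE, the glutamate tRNA next to MT-ND6 on the same strand, fell by 1.38 on the log2 scale (SE 0.25), and MT-TI, the isoleucine tRNA after MT-ND1, fell by 1.30 (SE 0.45). In all of the 7 tested rows except MT-TE, arginine-free replicate 1 lay below arginine-free replicate 2 in CPM, the reverse of the complex I rows. At MT-TI the 2 were nearly level (43.3 and 44.0 CPM). Control replicate 1 likewise lay above control replicate 2 in only 1 of the 7. MT-TR, the mitochondrial arginine tRNA between MT-ND3 and MT-ND4L, held 5 and 3 reads in control and 6 and 11 in arginine-free medium, too few to be tested.

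Nuclear genes of complex I could be followed only in part. Of 37 nuclear subunits, 33 had a row at their place, 25 of these rows held no read in any library, and 4 were tested. Because the rows' places are those of GRCh38 while the processing notes name GRCh37, reads in a nuclear row need not come from the gene at that place. None of the 4 passed with all 4 libraries in the edgeR fit described here or in DESeq2. The log2 fold changes were -0.49 (SE 0.21) at the place of NDUFS6, -0.06 (SE 0.26) at NDUFS7, -0.20 (SE 0.27) at NDUFB6 and 0.49 (SE 0.25) at NDUFA11 (edgeR quasi-likelihood test, unadjusted p under 0.05 for NDUFS6 alone, at 0.0342, and with DESeq2 for 0 of the 4). NDUFS6 passed under the minimum of 50 reads (-0.73, edgeR adjusted p = 0.0096), and NDUFA11 passed without arginine-free replicate 1 (0.82, adjusted p = 0.00675) and with libraries scaled to the 13 mitochondrial protein rows (1.34, adjusted p = 0.0432). Of 13 complex I assembly factors 2 had a tested row. The row at ACAD9 rose (log2 fold change 1.75, SE 0.32) from 11 and 18 to 73 and 54 reads, where 16% of tested rows were called higher, and that at FOXRED1 stood at 0.47 (SE 0.33). For the same reason the melanocyte origin of the cells could not be checked well: of 8 melanocytic markers 7 had a row and 4 rows held no read. The 1 tested, at TYRP1, fell from 16 and 25 reads to 1 and 0 (edgeR adjusted p = 0.000104). The rows of 4 fibroblast and 3 leukocyte markers were all listed at 0, and of 3 keratinocyte marker rows 1 held no read and the 3 held 29 reads in all.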

How the data were processed

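The authors deposited whole-number counts per gene row. Per the file headers, they came from featureCounts 2.0.1 over exons of GENCODE 47 (basic), with no strand option. Listed in the submitters' processing notes are GRCh37, hg19, TopHat2, cutadapt and Bowtie2 2.5.2. All 37 chrM rows share start and end with a RefSeq gene of GRCh38.p14, whose symbols were used. Some releases of hg19 carry another mitochondrial record, whose coordinates are offset by a few bases, and the effect of such an offset was not tested. Testing used edgeR 4.0.16 in R 4.3.3: filterByExpr, TMM, quasi-likelihood test, Benjamini-Hochberg adjustment over 2526 rows, threshold 0.05. The SE was recovered as the size of the log2 fold change divided by the root of F. On simulated counts for this comparison (the 2226 rows that passed the filter again) the test recovered 93.0% of 4-fold and 37.9% of 2-fold changes, with 5 false calls. All simulated rows had the same dispersion (0.034). These rates therefore need not hold for the complex I rows, whose arginine-free libraries lay further apart than those of most rows. Shares were compared by exact permutation in Python 3.11.15. Alternatives were DESeq2 1.42.0, other scalings and filters, a replicate block and leaving out each library. The rule for named rows took all 7 members, the other 6 protein rows where needed, the tRNA rows of a list of 12 around them (those next to a member are described), the 2 nearest rows by likeness, and tested nuclear complex I genes. Members and lists were chosen with earlier results of these data known. No sequences are shown.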

Additional observations from a re-analysis of the deposited data

How the results depend on the processing

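Over the alternatives, 61 of 80 fitted values of the 7 complex I rows kept their direction and their side of the threshold. MT-ND1 stood at 0.0038 with RLE factors and 0.079 without a filter. Scaled to the 13 mitochondrial protein rows, none of the 7 passed and the log2 fold changes were 0.63 (MT-ND1), -0.25 (MT-ND2), 0.084 (MT-ND3), 0.20 (MT-ND4), 0.10 (MT-ND5) and 0.15 (MT-ND6). That scaling moves the median of all rows to 0.70, and by construction it does not level the other rows, so its SE are wide (0.59 for MT-ND5). MT-ND2 did not pass with DESeq2 (-0.86) or under a minimum of 50 reads in both libraries of either group (-1.10), where MT-ND5 passed (-0.85). Leaving out 1 library gave ranges of -0.53 to 0.39 (MT-ND1), -1.53 to -0.41 (MT-ND2), -1.60 to 0.10 (MT-ND3), -0.91 to -0.091 (MT-ND4), -1.30 to -0.24 (MT-ND4L), -0.85 to -0.33 (MT-ND5) and -0.75 to -0.30 (MT-ND6), with 0 to 5 rows lower. The 5 lower rows came without arginine-free replicate 1, where 13.4% of 2830 tested rows were called lower. Without control replicate 1 it was 1 row, against 9.66% of 3055 tested rows. It was 0 without control replicate 2 (8.60% of 2826) and without arginine-free replicate 2 (12.3% of 3172). Each of these fits leaves 1 library in a group, so no conclusion is drawn from the counts. DESeq2 called 0 of the 7 at the adjusted threshold, where 7.48% of all tested rows were called lower. At an unadjusted DESeq2 p under 0.05 there were 2 of the 7. The share of all rows at that unadjusted level is not given here, and the 7.48% is no measure of it. The table as a whole had 428 lower and 405 higher rows, 189 and 193 with DESeq2, and 146 and 138 under the minimum of 50; leaving out 1 library gave 243 to 389 lower and 270 to 418 higher. The cause was not tested.

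With all rows as denominator the summed share differed by -0.21 points (0.569% to 0.363%), and without MT-CO1 by -1.62. For single rows the difference with all rows as denominator was -0.0017 (MT-ND1), -0.0050 (MT-ND3), -0.026 (MT-ND4), -0.11 (MT-ND5) and -0.012 (MT-ND6) points. MT-ND3 was at -0.045 per row length and -0.11 without MT-CO1, and MT-ND5 at -0.82 without MT-CO1. With 1 library left out, the share differences ranged from 1.65 to 3.94 (the 7 rows summed), 0.87 to 1.34 (MT-ND1), -1.996 to 0.089 (MT-ND2), -0.35 to 0.38 (MT-ND3), -0.053 to 1.91 (MT-ND4), -0.27 to 0.095 (MT-ND4L), 0.034 to 2.99 (MT-ND5) and 0.044 to 0.50 (MT-ND6) points.

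With the replicate number as a block MT-ND2 passed at -0.96 (edgeR adjusted p = 0.0457), 1 of the 7 rows was lower, and 372 and 354 rows were lower and higher over the table. Whether same-numbered libraries belong together is not stated. Their deviations correlated at -0.053 over 2526 rows, which cannot decide it. In the 13 mitochondrial protein rows replicate 1 lay above replicate 2 in 13 rows for arginine-free and in 11 for control libraries. Over all tested rows this held for 48.8% and 51.1%. Depth limits the smallest rows most, as MT-ND3 had 8 reads in arginine-free replicate 2.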
